A study of Mus musculus with 24 samples.

Results

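The 10 genes described here encode subunits of the transcription factor NF-κB and proteins that hold it in check: Nfkb1, Rel and Relb (subunits), Nfkbia, Nfkbib and Nfkbie (cytoplasmic inhibitors), Nfkbiz and Bcl3 (nuclear relatives of the inhibitors), and Tnfaip3 and Tnip1 (brakes on the signal upstream). They were chosen by symbol, and all 10 were found among the 55385 genes of the deposited table. RNA had been sequenced from 24 libraries of P815, a mouse mastocytoma (mast cell tumour) line, in 8 groups of 3. The NC groups carried a negative control vector, and the SH groups a vector with a short hairpin RNA against mouse ESR1. The ICI groups received ICI-182780 (fulvestrant, an estrogen receptor antagonist and degrader) and the Tamo groups tamoxifen (a selective estrogen receptor modulator). Each of these 4 arms had a group with and a group without β-estradiol (E2), which gave NC, NC_E2, SH, SH_E2, ICI, ICI_E2, Tamo and Tamo_E2. Treatment lasted 24 h where a time is labelled, which leaves out only the NC and SH groups that received no E2. The culture medium of all groups was RPMI-1640 supplemented with 10% fetal bovine serum. No dose, vehicle-only group or untransfected group is labelled, no vector is named for the ICI and Tamo groups, and a single hairpin is described. Drug and vector therefore cannot be told apart between an inhibitor arm and NC.

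NF-κB is a family of dimers built from Rela, Rel, Relb, Nfkb1 and Nfkb2. In resting cells the IκB proteins, among them those encoded by Nfkbia, Nfkbib and Nfkbie, keep the dimers in the cytoplasm. Signals from receptors of the TNF, IL-1 and Toll-like families activate IκB kinase, the IκB proteins are degraded, and the dimers enter the nucleus and bind κB sites. Several of the inhibitor genes are themselves NF-κB targets, so their transcripts are often used as a readout of the pathway and as its negative feedback. In mast cells the pathway is known for driving cytokine genes after activation of the IgE receptor or the IL-33 receptor.

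The promoters of Nfkbia and Tnip1 are shown because these members were called in the most comparisons, and both hold a match to the κB consensus, in capitals. Both are RefSeq sequences of GRCm38.p6, 250 bases before to 50 after the start, 5′ to 3′ along the gene: Nfkbia at chr12:55492598-55492897 and Tnip1 at chr11:54962891-54963190, both on the minus strand.
Nfkbia: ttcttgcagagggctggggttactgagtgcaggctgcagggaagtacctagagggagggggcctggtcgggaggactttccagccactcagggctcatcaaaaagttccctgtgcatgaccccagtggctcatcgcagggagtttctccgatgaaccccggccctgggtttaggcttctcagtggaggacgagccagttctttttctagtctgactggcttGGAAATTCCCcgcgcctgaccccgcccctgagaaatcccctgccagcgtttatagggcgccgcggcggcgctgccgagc
Tnip1: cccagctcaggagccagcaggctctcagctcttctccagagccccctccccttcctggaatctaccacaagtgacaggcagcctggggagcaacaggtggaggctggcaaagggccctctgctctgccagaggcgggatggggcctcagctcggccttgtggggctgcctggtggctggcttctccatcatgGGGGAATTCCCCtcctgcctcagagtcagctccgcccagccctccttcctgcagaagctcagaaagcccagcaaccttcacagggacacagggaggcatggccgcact
The Nfkbia match lies 29 to 20 bases before the start and reads GGGAATTTCC on the opposite strand. In Tnip1, overlapping matches on both strands, GGGGAATTCC and GGGAATTCCC, form a single run between 58 and 47 bases before the start. For comparison, the matches in other members were as follows, read along the gene.
Rel, 92 to 83 bases before the start: GGGAAATCCC
Tnfaip3, 125 to 116 bases before the start: GGGACACCCC
Nfkbie, 106 to 97 bases before the start: GGGGGATTCC
Bcl3, just after the start: GGGAAGTCCC
Rel and Tnfaip3 each also held GGGGATTTCC on the opposite strand. The promoter table held 7 of the 10 members, and it had no entry for Nfkb1, Relb and Nfkbiz. The consensus, searched on both strands with overlapping matches counted, was found in 6 of the 7, Nfkbib being the exception. Tnfaip3 had 2 promoters in the table, of which 1 held the matches. Over all 32851 promoters of the table, 2779 (8.46%) held a match. A match describes letters in these 300 bases and not binding.

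Per gene length, on the deposited FPKM scale (fragments scaled by gene length and sequencing depth), Nfkbib was the most abundant member, at 21.2 ± 4.09 FPKM (SD, n = 24 libraries), and exceeded every other member in 24 of 24 libraries. Tnip1 (10.0 ± 1.27 FPKM) and Nfkbiz (9.01 ± 3.70 FPKM) followed, and their order changed with arm and replicate number. Tnip1 was the higher in 12 of 24 libraries: all those of the SH arm and all those numbered 3. Nfkbiz was the higher in all the others. Nfkbie (5.40 ± 1.46 FPKM) and Nfkbia (5.39 ± 1.70 FPKM) had level means, with Nfkbie higher in 12 of 24. In the SH arm Nfkbia was the higher except in SH_E2 replicate 3. Nfkb1, at 4.60 ± 0.448 FPKM, lay below Nfkbia in 14 of 24 libraries. Relb stood at 3.70 ± 0.611 FPKM, Rel at 1.61 ± 0.433 FPKM and Tnfaip3 at 1.05 ± 0.372 FPKM, each below its upper neighbour in at least 22 of 24 libraries. These transcripts thus ranged from moderate to low in P815. Bcl3 was close to undetected, with 0 to 43 estimated counts per library and 0 counts in 7 of 24, and it stayed below the 1 FPKM that a gene needed in at least 3 libraries to be tested. No library of the SH arm was among those 7, but at these counts no difference was called for Bcl3 in the test without a filter. Tests therefore cover 9 of the 10 members.

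**Figure D1:**
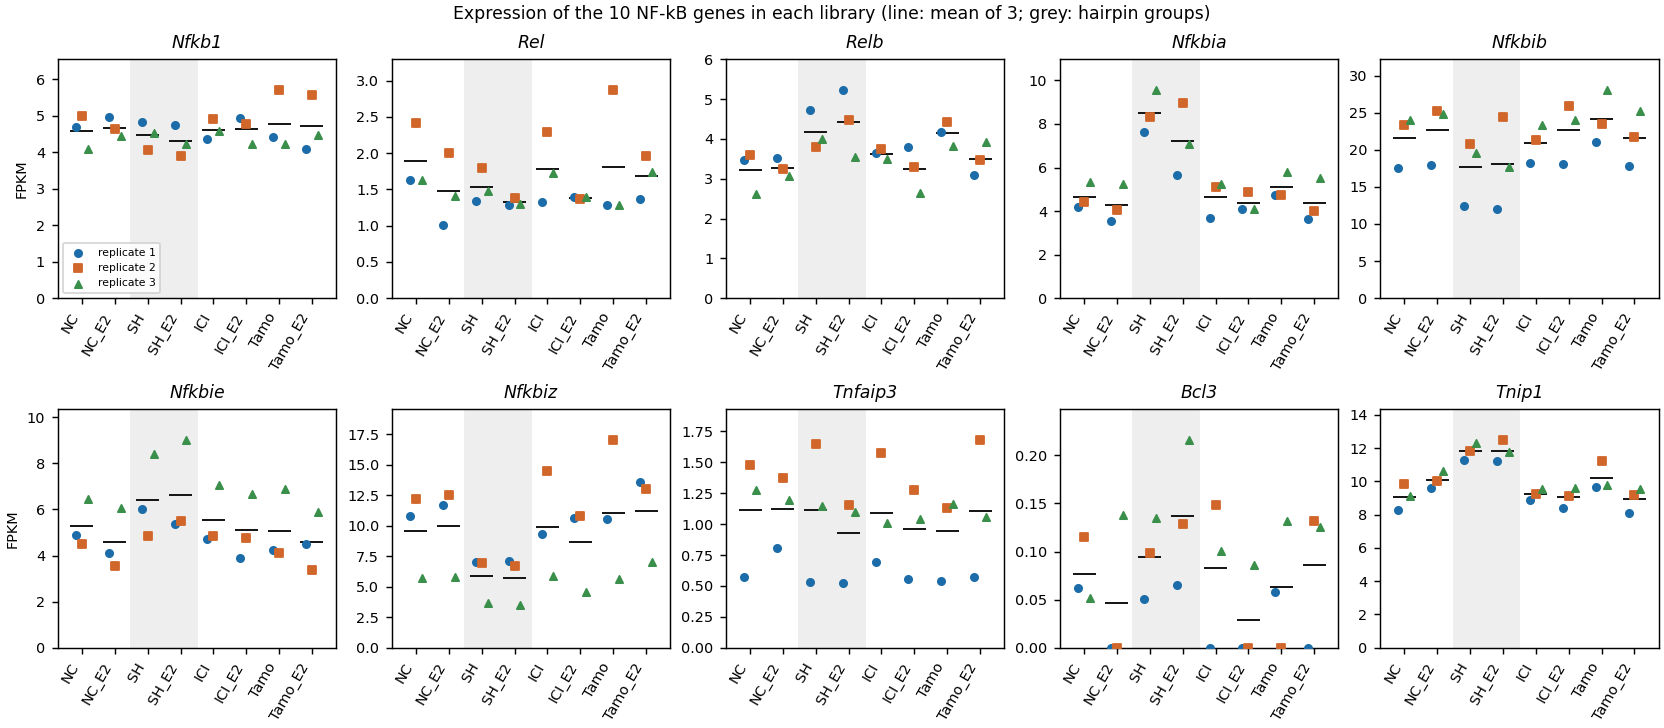
FPKM (linear axis from 0, a scale per gene) of the 10 members in each of the 24 libraries, by group; the marker gives the replicate number, the line the mean of 3 libraries and the grey band the hairpin groups. Nfkbia and Tnip1 sit higher in the 6 libraries of the SH arm than in the 6 of the NC arm, whereas Tnfaip3 is lowest in replicate 1 of every group.

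The libraries held 42.1 to 68.8 M estimated counts each (median 54.2). Mast cell identity was checked against 14 markers, and 13 reached 1 FPKM in at least 1 library, among them Kit, Cpa3, Gata2 and Hdc. The medians of Tpsb2 (0.744 FPKM), Mcpt4 (0.667) and the IgE receptor chains Fcer1a (0.228) and Ms4a2 (0.0726) were below 1 FPKM. None of the T cell, B cell or neutrophil markers reached 1 FPKM. The 5 fibroblast markers summed to 14.1 to 26.3 FPKM in the SH arm against 8.32 to 13.4 in the other 18 libraries. Pdgfrb made up nearly all of it, with Col3a1 and Dcn near 0, and 2 of the 5 reached 1 FPKM in at least 1 library. The 6 macrophage markers summed to 29.8 to 36.1 FPKM in the SH arm against 20.8 to 31.0 elsewhere. Of the 6, 3 reached 1 FPKM in at least 1 library. Cd68 (median 19.9 FPKM) made up most of the sum, with Csf1r, Marco and Mertk near 0. The 14 mast cell markers summed to 1002 to 1226 against 793 to 1068. These sums moved with the hairpin label, and their part in the differences given next was not tested. In bulk RNA, fewer cells of a type and less RNA per cell cannot be told apart. Esr1, the hairpin's target, was low everywhere (0.161 to 0.520 FPKM, 156 to 433 estimated counts) and below the filter for the tests. Its level was 0.246 ± 0.0572 FPKM in the SH arm and 0.328 ± 0.0998 in the NC arm (SD, n = 6 each; exact permutation test, two-sided p = 0.136). That test took no account of replicate number or E2 condition. Between libraries of the same number and E2 condition, Esr1 was lower in SH than in NC except in number 3 without E2 (0.260 against 0.187 FPKM). At these low levels the label of the hairpin arm rests on the submitters' description.

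In the hairpin arm the transcripts of the inhibitors Nfkbia and Tnip1 and of the subunit Relb rose against the vector control, when both E2 conditions were averaged. The other 6 members tested were not called there. The model was edgeR's quasi-likelihood test over all 24 libraries, and a gene was called at a Benjamini-Hochberg adjusted p under 0.05 over the 12183 genes tested. In that comparison 20.7% of all genes tested were called, 10.6% higher in SH and 10% lower, and the 3 of 9 members have to be read against that high background. Without E2, this model, which has no replicate block, called 1 member (Nfkbia) against 9.07% of all genes (4.92% higher, 4.15% lower). The replicate numbers pair these groups. With the number as a block, Tnip1 (higher) and Nfkbiz (lower) were also called there (edgeR adjusted p = 0.00189 and 0.000438). The share of all genes called rose with the block too, as given at the end. With E2 and no block, Nfkbia alone was called, against 9.59% of all genes (5.3% higher, 4.28% lower). Against the 4 antiestrogen groups, which share no library with NC, 3 members were called (Nfkbia and Tnip1 higher, Nfkbiz lower) against 28.2% of all genes (14.8% higher, 13.4% lower). The comparisons over both E2 conditions use the same SH libraries, so their calls are not independent of each other.

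**Figure D2:**
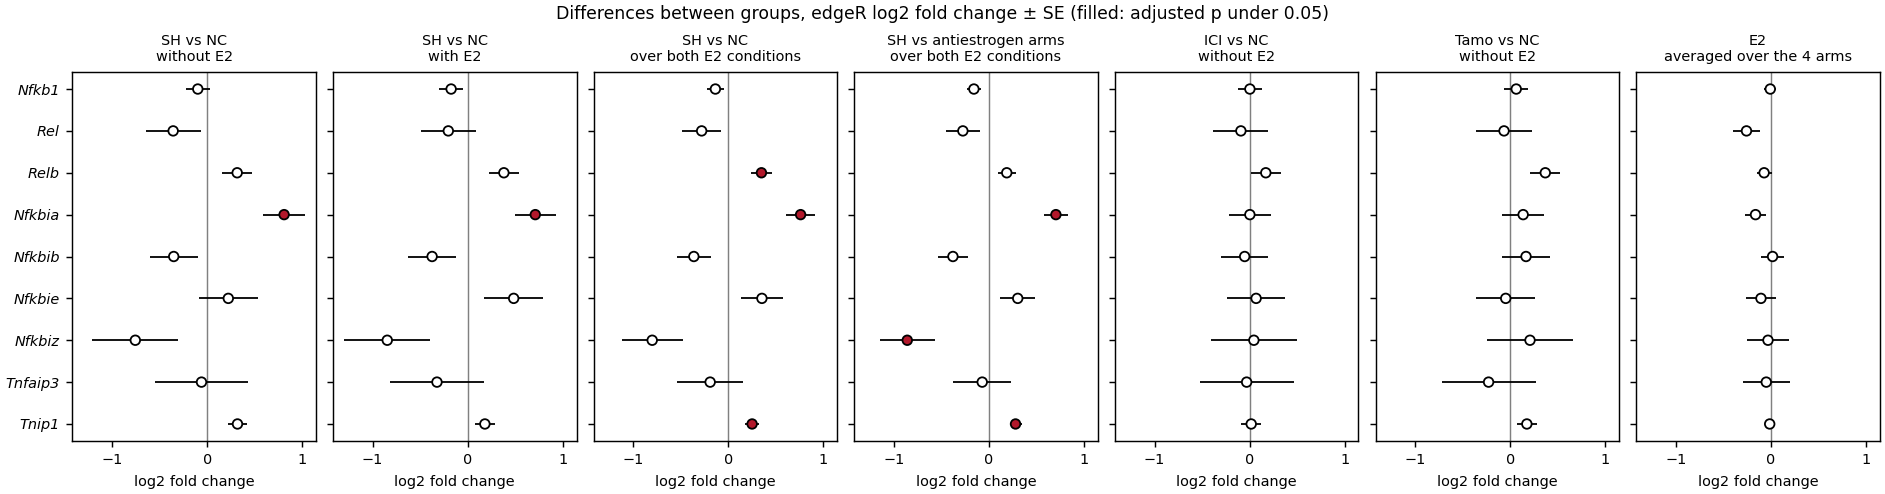
Log2 fold change (edgeR) of the 9 tested members in 7 comparisons, with bars for the SE; filled points have an adjusted p under 0.05. Nfkbia, Tnip1 and Relb are filled and above 0 in the comparison of SH with NC over both E2 conditions. In that of SH with the antiestrogen arms, Nfkbia and Tnip1 are filled above 0 and Nfkbiz below. No point is filled in the comparisons of ICI with NC, of Tamo with NC, and for E2.

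Nfkbia encodes IκBα, the inhibitor that is degraded and resynthesised fastest in the textbook feedback loop. The gene (ENSMUSG00000021025) lies at chr12:55489410-55492647 of GRCm38, on the minus strand. It measured 4.20, 4.40 and 5.35 FPKM in NC, and 7.61, 8.30 and 9.55 FPKM in SH. With E2 the values were 3.56, 4.04 and 5.24 FPKM in NC_E2, and 5.67, 8.97 and 7.08 FPKM in SH_E2. All 6 hairpin libraries lay above all 6 vector libraries, and within each replicate number both hairpin libraries lay above the other 6. The ICI libraries (3.68, 5.09 and 5.23 FPKM), ICI_E2 (4.08, 4.89 and 4.09), Tamo (4.73, 4.73 and 5.81) and Tamo_E2 (3.62, 4.02 and 5.53) stayed near the vector libraries. Their highest value, 5.81 FPKM in Tamo replicate 3, passed the lowest hairpin value, 5.67 FPKM in SH_E2 replicate 1. The rise was 1.69-fold over both E2 conditions (log2 0.76 ± 0.15 SE; edgeR adjusted p = 0.00124) and 1.63-fold against the antiestrogen arms (log2 0.70 ± 0.13; edgeR adjusted p = 0.000353). Both calls held with any single library left out. Without E2 it was 1.75-fold (log2 0.81 ± 0.22; edgeR adjusted p = 0.0217), and this call was lost when NC replicate 1 or 2, or SH replicate 2 or 3, was left out (Nfkbia adjusted p = 0.0528 to 0.0941). With E2 it was 1.64-fold (log2 0.71 ± 0.22; edgeR adjusted p = 0.0446), lost when either NC_E2 replicate 1 or 2, or SH_E2 replicate 2 or 3, was left out (Nfkbia adjusted p = 0.0868 to 0.216).

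Tnip1 encodes a ubiquitin-binding partner of the Tnfaip3 protein that restrains signalling to IκB kinase. The gene (ENSMUSG00000020400) lies at chr11:54910785-54962917, on the minus strand. It measured 8.31, 9.82 and 9.15 FPKM in NC, 9.63, 10.0 and 10.6 in NC_E2, 11.3, 11.8 and 12.3 in SH, and 11.2, 12.5 and 11.8 in SH_E2. The 6 hairpin libraries lay above the 6 vector libraries without overlap. They also lay above the 12 antiestrogen libraries (8.09 to 11.2 FPKM), the nearest being Tamo replicate 2. The rise was small: 1.19-fold over both E2 conditions (log2 0.25 ± 0.07; edgeR adjusted p = 0.0200) and 1.21-fold against the antiestrogen arms (log2 0.28 ± 0.06; edgeR adjusted p = 0.00233). The first call was lost without NC replicate 1, NC_E2 replicate 1, SH replicate 3 or SH_E2 replicate 2 (Tnip1 adjusted p = 0.0519 to 0.0584), and the second held with any library left out. Without E2, Tnip1 differed by log2 0.32 ± 0.10 and was not called (edgeR adjusted p = 0.0642). With the replicate number as a block, which pairs these groups, it was (log2 0.32; edgeR adjusted p = 0.00189). With E2 the difference was log2 0.18 ± 0.10 (edgeR adjusted p = 0.351). Tnip1 overlaps the plus-strand gene Gm12230, and since no strand protocol is stated their reads could be mixed. The same limit holds for Nfkb2 (Psd and 4833438C02Rik), Nfkbib (Ccer2), Bcl3 (Gm16175 and Gm16174), Ikbkb (Gm15346) and Ikbkg (G6pdx). Nfkb1 overlaps Gm43430 on its own strand.

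Relb encodes the subunit that pairs with the processed Nfkb2 product in the non-canonical pathway. The gene (ENSMUSG00000002983) lies at chr7:19606217-19629438, on the minus strand. It measured 3.47, 3.59 and 2.61 FPKM in NC, 3.53, 3.24 and 3.06 in NC_E2, 4.72, 3.81 and 4.0 in SH, and 5.22, 4.49 and 3.56 in SH_E2. Each hairpin library was above the vector library of its own number and E2 condition (6 of 6 pairs), but the arms overlapped at 3.56 against 3.59 FPKM. The rise was 1.27-fold over both E2 conditions (log2 0.35 ± 0.11; edgeR adjusted p = 0.0316). This call was lost without any of 6 single libraries: NC replicate 3, replicates 2 and 3 of NC_E2, SH replicate 1, and replicates 1 and 2 of SH_E2 (Relb adjusted p = 0.0612 to 0.0952). Against the antiestrogen arms the difference was log2 0.19 ± 0.10 and was not called (edgeR adjusted p = 0.165). Tamo without E2, at 4.19, 4.44 and 3.82 FPKM, lay in the range of the hairpin libraries.

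Nfkbiz encodes IκBζ, a nuclear protein that acts with NF-κB on secondary response genes such as Il6. The gene (ENSMUSG00000035356) lies at chr16:55811375-55838899, on the minus strand. It measured 10.8, 12.2 and 5.69 FPKM in NC, 11.7, 12.5 and 5.76 in NC_E2, 7.05, 6.96 and 3.67 in SH, and 7.11, 6.66 and 3.48 in SH_E2. Replicate 3 was the lowest library of each of these groups, so the arms overlapped. Within each number, however, both hairpin libraries lay below the other 6, and the within-number log2 differences without E2 were −0.61, −0.81 and −0.63. Over both E2 conditions the difference was log2 −0.80 ± 0.32 and was not called by edgeR (adjusted p = 0.0861), whereas DESeq2 called it (Nfkbiz log2 −0.80; adjusted p = 0.0435). Without E2 it was log2 −0.76 ± 0.45 (edgeR adjusted p = 0.380), and with the replicate block −0.74, which was called (edgeR adjusted p = 0.000438). Against the antiestrogen arms Nfkbiz fell by 0.86 ± 0.29 in log2 terms (edgeR adjusted p = 0.0296), a call lost without ICI replicate 2, SH replicate 3 or SH_E2 replicate 3 (Nfkbiz adjusted p = 0.0506 to 0.0858). In that comparison Nfkbiz and Nfkbia were called in opposite directions, and the Pearson r of their log2 CPM (counts scaled to library size) was −0.66 over the 24 libraries, as a description.

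The other inhibitors and subunits were not called in the hairpin comparisons by edgeR with all 24 libraries and no replicate block. With the block, Nfkbie and Nfkbib were called over both E2 conditions (edgeR adjusted p = 0.00226 and 0.00338). They were also called with E2 (edgeR adjusted p = 0.00417 and 0.0371) and against the antiestrogen arms (0.00156 and 0.000589), but not without E2. The numbers do not pair all of the groups in the comparisons where they were called. DESeq2 without a block called Nfkbib against the antiestrogen arms (DESeq2 adjusted p = 0.0484). Nfkbib, encoding IκBβ, measured 17.6 ± 4.50 FPKM in SH and 21.6 ± 3.57 in NC (SD, n = 3 each), with 0 of 6 hairpin libraries above their vector partner; over both E2 conditions the difference was log2 −0.36 ± 0.18 (edgeR adjusted p = 0.166). Without SH_E2 replicate 2, the highest hairpin library at 24.4 FPKM, Nfkbib was called (log2 −0.51; edgeR adjusted p = 0.0450). Nfkbie, encoding IκBε, measured 6.42 ± 1.83 FPKM in SH and 5.28 ± 1.02 in NC, and was above its partner in 6 of 6 pairs (log2 0.35 ± 0.22 over both; edgeR adjusted p = 0.291). Both members had the same sign in all 6 pairs, and the replicate number took more of their variation than the arm. Nfkb1, the precursor of the classical DNA-binding subunit, was the steadiest member, at 3.89 to 5.70 FPKM over all 24 libraries (log2 −0.14 ± 0.09 over both; edgeR adjusted p = 0.320). Rel, the c-Rel subunit of lymphoid and myeloid cells, differed by log2 −0.28 ± 0.21 (edgeR adjusted p = 0.386), and Tnfaip3, a ubiquitin-editing enzyme, by −0.19 ± 0.35 (edgeR adjusted p = 0.766). The 95% interval was −0.71 to 0.15 for Rel and −0.92 to 0.54 for Tnfaip3.

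The balance of subunits shifted between arms on the FPKM scale, as a description with no test. The summed FPKM of the 5 subunit genes was 31.7% to 40.8% Nfkb2 in the 6 hairpin libraries, against 46.0% to 56.5% in the other 18. Rela, the main activating subunit, made up 33.1% to 37.0% against 19.6% to 30.1%, and Relb 10.1% to 14.7% against 6.68% to 10.2%. The Rela and Nfkb2 shares did not overlap, and those of Relb met at their edges. Nfkb1 averaged 12.3% against 11.2% and Rel 4.0% against 3.95%. The FPKM ratio of Nfkb1 to Nfkb2 averaged 0.339 in the hairpin arm and 0.218 elsewhere. Nfkb1 itself averaged 4.38 and 4.67 FPKM there, and Nfkb2 13.1 and 21.6. For Rel to Rela the ratio averaged 0.115 and 0.161, with Rel at 1.43 and 1.67 FPKM and Rela at 12.5 and 10.5. A share or ratio also changes when only another gene in it moves, so these values do not show which gene changed. The FPKM ratio of Relb to Nfkb2 was 0.247 to 0.463 in the hairpin arm and 0.118 to 0.209 elsewhere. That of Nfkbia to Nfkbib was 0.367 to 0.610 against 0.160 to 0.240. Nfkb2 encodes the precursor of the non-canonical pathway. It measured 13.0, 15.4 and 13.3 FPKM in SH against 19.2, 23.0 and 20.9 in NC, and lay lower in the hairpin arm than in all other 18 libraries. Over both E2 conditions Nfkb2 fell by 0.72 ± 0.10 in log2 terms (edgeR adjusted p = 1.97e-05), while Rela differed by 0.22 ± 0.11 and was not called (edgeR adjusted p = 0.175). Rela was nevertheless higher in SH than in NC in 6 of 6 pairs of the same number and E2 condition. Within each number both hairpin libraries lay above the other 6, but across numbers the arms overlapped.

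**Figure D3:**
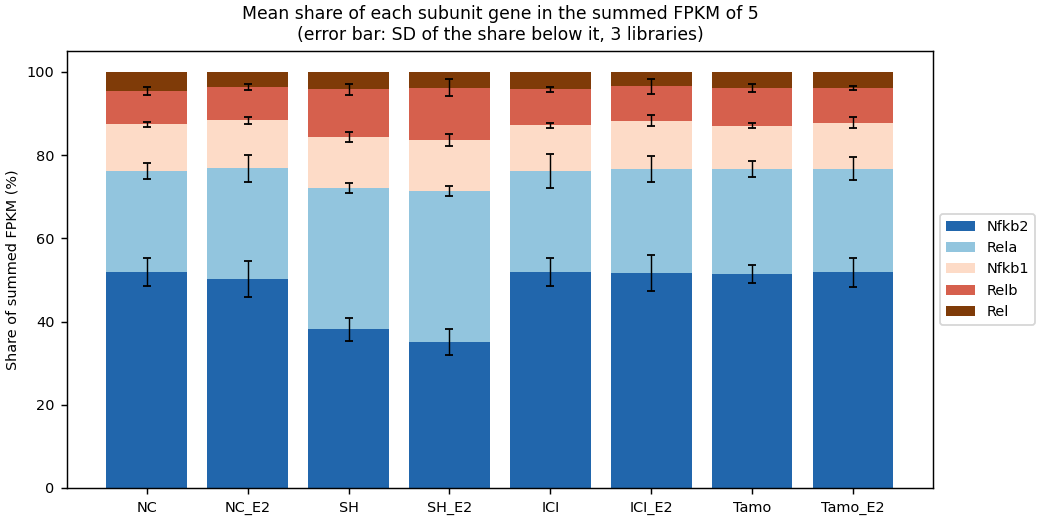
Stacked bars give the mean share (%) of each of the 5 subunit genes in their summed FPKM, by group (n = 3), and each error bar the SD of the share that ends there. The Nfkb2 part is lower in SH and SH_E2, where single libraries reach at most 40.8%, than in the other 6 groups, where they reach at least 46.0%.

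Nfkb2, Rela and the kinase gene Chuk lie on chromosome 19, where the median log2 fold change in the hairpin comparison over both E2 conditions was −0.34 over 450 genes and 40.4% of genes were called lower. The part of this chromosome-wide shift in the values of these 3 genes was not tested. Nfkb1 lies on chromosome 3, whose median was 0.12 over 597 genes, with 23.5% called higher. The members that were called in the hairpin comparison over both E2 conditions lie elsewhere: Nfkbia on chromosome 12 (median 0.01), Tnip1 on chromosome 11 (−0.02) and Relb on chromosome 7.

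No member was called for either antiestrogen. ICI-182780 against the vector control without E2 gave log2 differences of −0.09 to 0.17 over the 9 members, tamoxifen −0.23 to 0.37, and 0 members were called in either by edgeR, DESeq2 or limma. The background was as low, with 0.00821% of all genes called in each. For ICI 0 members, and for tamoxifen 1, had an unadjusted p under 0.05 in edgeR. That member was Relb, at 3.22 ± 0.537 FPKM in NC and 4.15 ± 0.313 in Tamo (SD, n = 3 each; log2 0.37 ± 0.16; edgeR unadjusted p = 0.0305, adjusted p above 0.99). Its 95% interval ran from 0.04 to 0.70. The 95% intervals of the 9 members against ICI spanned −1.06 to 1.0, so the noisier members could have moved by up to that size without being called. With E2 present, and between the drugs over both E2 conditions, edgeR, DESeq2 and limma also called 0 members. Over all genes edgeR called 0% there, and DESeq2 called 5 genes for ICI, 2 for Tamo and 1 between the drugs.

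No member was called for estradiol. Averaged over the 4 arms, the E2 differences ran from −0.26 to 0.02 on the log2 scale. In that comparison edgeR called 0 members, with 0 at an unadjusted p under 0.05, against 0.0575% of all genes (0.0492% higher, 0.00821% lower), and DESeq2 and limma also called 0 members. The 95% intervals of the 9 members lay between −0.56 and 0.47. Rel had the most negative value and was lower with E2 in 9 of 12 pairs (log2 −0.26 ± 0.15; edgeR without a replicate block, unadjusted p = 0.0938). Its mean FPKM without and with E2 was 1.89 and 1.47 in the NC arm, 1.54 and 1.32 in SH, 1.78 and 1.38 in ICI, and 1.81 and 1.69 in Tamo. Nfkbia was higher with E2 in 2 of 12 pairs, Nfkbie in 3, Nfkb1 and Tnfaip3 in 4, Tnip1 in 5, Relb and Nfkbib in 6 and Nfkbiz in 7. Within single arms edgeR called 0 members and 0% of all genes, and the same held for the E2 effect in an arm against that in NC. These fits had no replicate block, although the numbers pair each arm with its E2 group. With the block, edgeR also called 0 members in the E2 comparisons. Among those differences of E2 effects 1 unadjusted p was under 0.05: Tnip1 in Tamo, where FPKM went from 10.2 ± 0.860 to 8.96 ± 0.769, against 9.09 ± 0.759 to 10.1 ± 0.513 in NC (log2 difference of differences −0.34 ± 0.15; edgeR unadjusted p = 0.0328, adjusted p above 0.99).

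For several members the replicate number carried more of the variation than the treatment. Of the variation of log2 CPM over the 24 libraries, the replicate number took 89.1% for Tnfaip3, 72.3% for Nfkbie, 61.3% for Nfkbiz, 52.6% for Nfkbib and 48.9% for Rel. The median over all genes tested was 23.1%. The arm took the largest share for Nfkbia (64.6%), Tnip1 (56.0%) and Relb (39.2%), against a median of 18.1% over all genes. E2 took at most 10.9% of any member (Rel; median over all genes 1.25%). Tnfaip3 read 0.521 to 0.805 FPKM in the 8 libraries numbered 1, 1.13 to 1.68 in those numbered 2 and 1.01 to 1.28 in those numbered 3. Nfkbie was highest in number 3 (5.87 to 9.02 FPKM, against 3.89 to 6.01 and 3.38 to 5.50). Nfkbiz was lowest there, with a median of 5.64 FPKM against 10.6 and 12.4. Nfkbib was lowest in number 1, with medians of 17.9, 23.4 and 24.0 FPKM. Thus, for Tnfaip3, Nfkbie, Nfkbiz and Nfkbib, the libraries of a number moved together across all arms. Tnfaip3 and Nfkbib shared their lowest number, whereas Nfkbie and Nfkbiz went opposite ways in number 3. Such joint movement did not hold for every member. For Nfkb1 the largest share, 50.9%, went with the combination of arm and number, so its pattern by number differed between arms. The labels do not say what a number stands for.

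**Figure D4:**
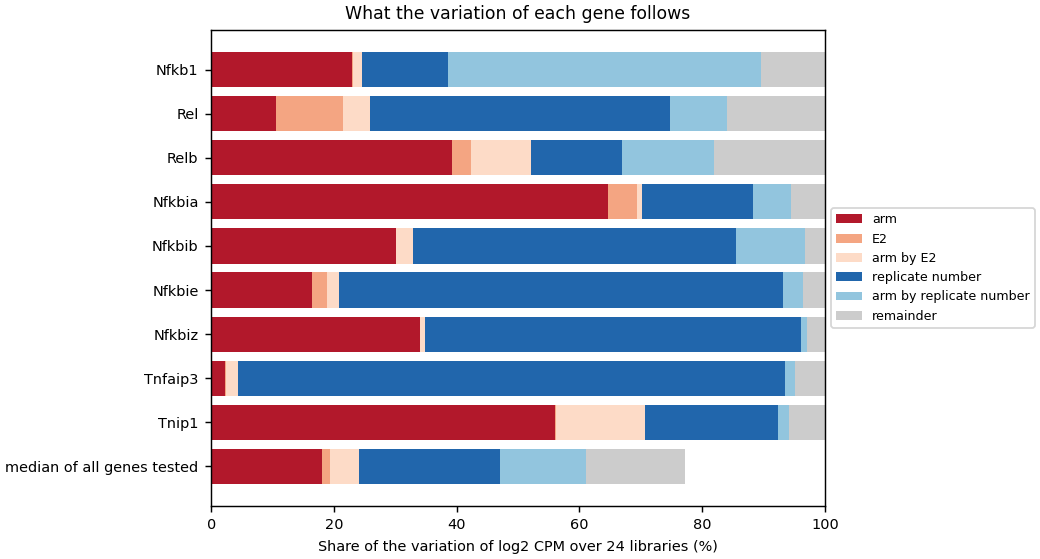
Share (%) of the variation of log2 CPM over 24 libraries that goes with arm, E2, replicate number, their combinations and the remainder, for each tested member and as the median over all genes (medians, so they need not sum to 100). Arm is the largest part for Nfkbia (64.6%), Tnip1 (56.0%) and Relb (39.2%), and replicate number for Tnfaip3 (89.1%), Nfkbie and Nfkbiz.

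Among themselves the members fell into no common pattern. Over the 24 libraries the Pearson r of log2 CPM between pairs of members ran from −0.89 (Nfkbie and Nfkbiz) to 0.80 (Nfkbia and Tnip1), with Nfkbib and Tnfaip3 at 0.71. The libraries share arms and replicate numbers, so these values are descriptions. The tested gene most like each member was Zfp385a for Nfkbia (r = 0.93), Mknk2 for Tnip1 (0.90), Sec14l1 for Relb (0.79), Lgals8 for Nfkbiz (0.95) and Tubb6 for Nfkbib (0.95). For the rest it was Hnrnpdl for Tnfaip3 (0.94), Hcfc1 for Rel (0.90), Sil1 for Nfkbie (0.86) and Recql4 for Nfkb1 (0.81).

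The wider pathway was read from 4 lists in the hairpin comparison over both E2 conditions, where 10.6% of all genes were called higher and 10% lower and the median over all genes was −0.00. Of 36 signalling genes 30 were tested, 6 rose and 2 fell (median log2 0.15). Bcl10, the adaptor between antigen receptors and IκB kinase, rose by 0.65 ± 0.07 (edgeR adjusted p = 2.50e-06), from 11.2 ± 0.533 FPKM in the NC arm to 18.3 ± 1.26 in the SH arm (SD, n = 6 each). Birc3, a ubiquitin ligase of TNF receptors, rose by 0.64 ± 0.13, and the kinase adaptors Tab1 and Tab2 by 0.47 ± 0.12 and 0.40 ± 0.09. Map3k7 and Myd88 completed the 6; the first was lost without SH replicate 3 and the second without any of 11 of the 12 single libraries. Those that fell were Nfkb2 and Chuk, encoding an IκB kinase subunit (−0.39 ± 0.06; edgeR adjusted p = 8.45e-05). The other kinase subunit genes were not called: Ikbkb differed by 0.03 ± 0.11 (edgeR adjusted p = 0.877) and Ikbkg by 0.23 ± 0.12 (edgeR adjusted p = 0.204).

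Of 12 other brakes on the pathway 11 were tested, 3 rose and 1 fell (median −0.02). The deubiquitinase Otud7b rose by 0.68 ± 0.10, Pdlim2 (a ubiquitin ligase for Rela) by 0.44 ± 0.09 and the deubiquitinase Cyld by 0.63 ± 0.20, while N4bp1 fell by 0.50 ± 0.08. The Cyld call was lost without NC replicate 3, NC_E2 replicates 2 or 3, or replicate 1 of SH or SH_E2. The count of brakes that fell was 2 without NC_E2 replicate 1, SH replicate 2 or SH_E2 replicate 2. Bcl10 and Otud7b lie on chromosome 3.

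Of 19 receptors upstream of NF-κB 7 were tested. Tnfrsf1a, the main TNF receptor, entered only because it reached 1 FPKM in the hairpin arm, so its level there (1.33 FPKM against 0.208 in the NC arm) is given as a description. Of the other 6, 3 rose and 1 fell (median 0.65). Tnfrsf9, a costimulatory TNF receptor, rose by 1.63 ± 0.15, from 11.8 ± 3.13 to 37.4 ± 8.12 FPKM (SD, n = 6 each; edgeR adjusted p = 1.98e-07). Il18rap, a chain of the IL-18 receptor, rose by 0.83 ± 0.08, and Ltbr, the lymphotoxin receptor that feeds the non-canonical pathway, by 0.48 ± 0.09. Il1rl1, the IL-33 receptor of mast cells, fell by 1.06 ± 0.18, from 14.1 to 7.0 FPKM.

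Of 35 target genes 23 were tested, 1 rose and 7 fell (median −0.59). This list held none of the members, although several inhibitor genes are NF-κB targets. Of the members tested, Nfkbia, Tnip1 and Relb were called higher in this comparison and 0 were called lower. The list was also drawn up with earlier results of these data known, so its counts describe the listed genes only. Tnf fell from 48.7 ± 11.1 to 16.2 ± 6.31 FPKM (SD, n = 6 each; log2 −1.63 ± 0.28; edgeR adjusted p = 0.000256). The protease Plau fell by 1.49 ± 0.18, the stress gene Ier3 by 1.53 ± 0.26, the activation marker Cd69 by 1.51 ± 0.26 and the survival gene Bcl2l1 by 0.77 ± 0.20. The cytokine Il6 and the inflammasome sensor Nlrp3 completed the 7, Nlrp3 losing its call without any of 7 of the 12 single libraries. The chemokine Ccl2 rose by 1.37 ± 0.21, from 63.6 to 169 FPKM. In ICI and Tamo against NC, 0 genes of any of the 4 lists were called, and for E2 averaged over the arms 1 was, Nlrp3.

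**Figure D5:**
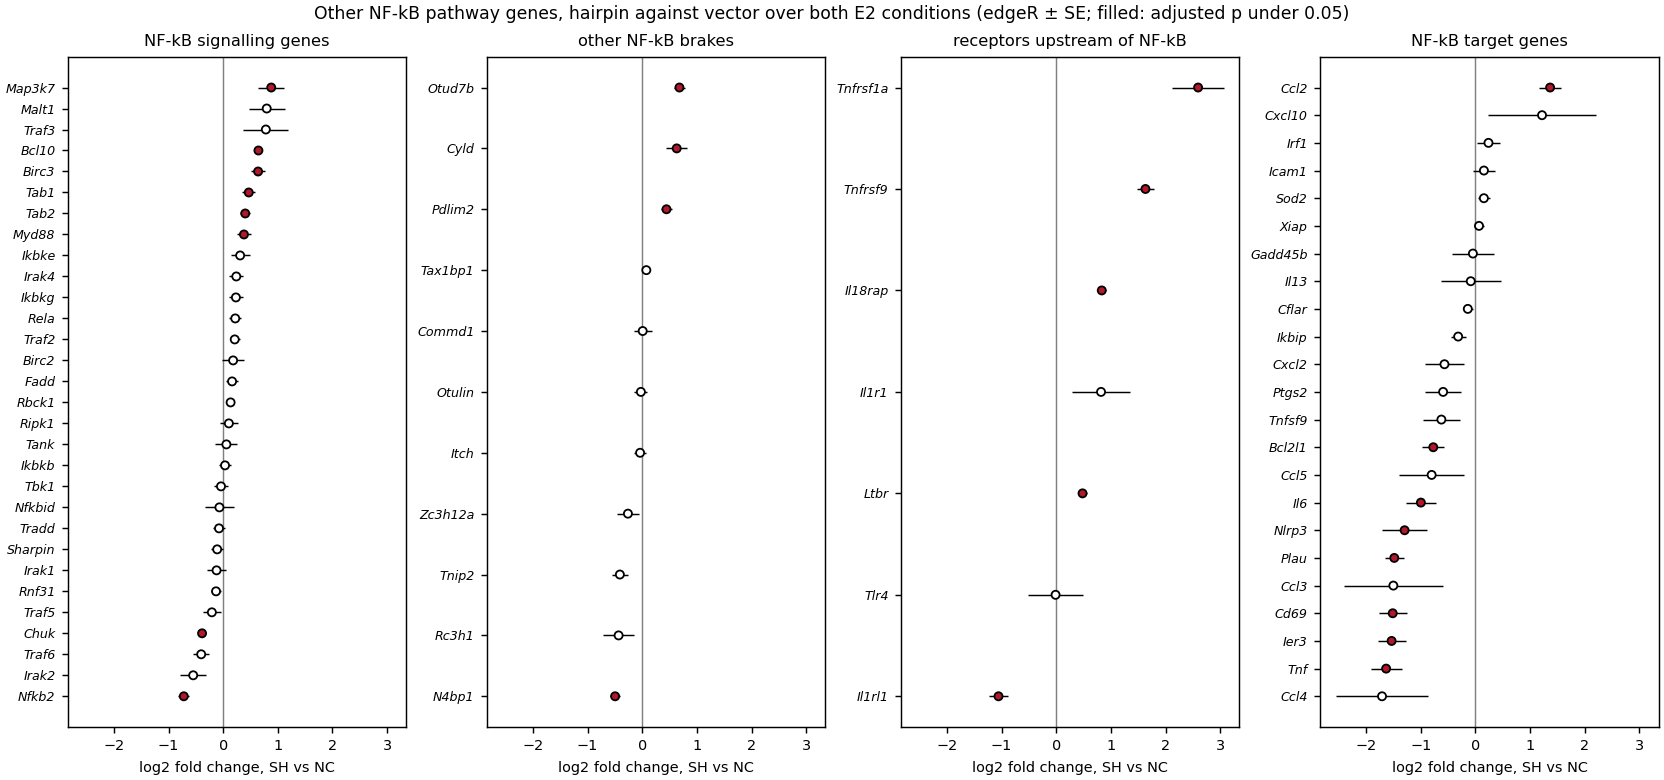
Log2 fold change (SH arm against NC arm over both E2 conditions, edgeR) of the tested genes of the 4 pathway lists, with bars for the SE and genes with an adjusted p under 0.05 filled. Of the filled receptors, leaving out Tnfrsf1a, which entered the tests only through the hairpin arm, 3 lie above 0 and 1 below, and of the filled targets 1 lies above 0 and 7 below.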

How the data were processed

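RNA-seq of 24 P815 libraries was analysed from a single deposited table, with groups taken from the labels. The submitters' processing notes name cutadapt, HISAT2 and the GRCm38 build. For the quantifier, the annotation and all versions, the sources used here give no name, and no strand protocol is stated. The authors deposited FPKM values, with a small placeholder where the count is 0. The authors also deposited whole-number counts per gene, per the file headers, which were taken as estimated counts (expected counts) because low values pile up at multiples of 4, and were used as they stood.

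Genes that reached 1 FPKM in 3 or more libraries (12183 genes, with 9 of the 10 members among them) were fitted in edgeR 4.0.16 (quasi-likelihood, TMM, 1 coefficient per group, no replicate block). Two-sided p-values were adjusted by Benjamini-Hochberg over the 12183 genes, and a call needed an adjusted p under 0.05. SE was computed as the size of the log2 fold change divided by the root of F, and errors of FPKM are SD. The alternatives were DESeq2 1.42.0, limma 3.58.1 on log2(FPKM + 1) and log2(FPKM + 0.1), no filter, a filter of 5 FPKM, the replicate number as a block, counts divided by 4, replicates 2 and 3 only, and each library left out. The edgeR script was tested on simulated data. Esr1 was compared by an exact permutation test. Promoter sequences are from RefSeq.

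The labels do not say whether replicates are separate cultures, so the spread behind each p-value may be technical. Same-numbered libraries deviated together from their group means (median r = 0.232 against −0.141 for different numbers). By the rule that every pair of the compared groups must exceed 0.1, the numbers pair NC with SH without E2 (r = 0.337, 0.164 and 0.211) and each arm with its E2 group. NC_E2 with SH_E2 missed the rule (lowest r = 0.0967).

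The members and pathway lists were chosen with earlier results of these data known. All members are named. Of each pathway list at most 6 called genes, by p, are given with values, as are Rela, Nfkb2, Chuk, Ikbkb and Ikbkg; other called genes are only named.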

Additional observations from a re-analysis of the deposited data

How the results depend on the processing

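For members called in SH against NC without E2 (1 of 9), the count was 2 with DESeq2, the 5 FPKM filter and limma with either pseudocount, 0 without a filter or with replicates 2 and 3 only, and 0 to 1 with single libraries left out. The genes called moved too: 1453 of 12183 with DESeq2, 836 of 8031 with the 5 FPKM filter, 869 of 28735 without a filter and 768 of 12183 with replicates 2 and 3 only, against 1105 of 12183. With E2 (1 of 9) it was 0 without a filter or with replicates 2 and 3 only, and 0 to 1 with libraries left out. Over both E2 conditions (3 of 9) it was 4 with DESeq2, which added Nfkbiz, 3 with limma, 1 without a filter and 1 with replicates 2 and 3 only. Against the antiestrogen arms (3 of 9) it was 4 with DESeq2, 2 with limma and 2 with replicates 2 and 3 only. The cause was not tested. With the replicate block, the counts were 3 without E2, 4 with E2, 6 over both and 5 against the antiestrogen arms. The block added Nfkbiz, Nfkbib and Nfkbie over both, and 0 members in the E2 and antiestrogen comparisons. Over all genes the block called 2572 without E2 against 1105, 2667 with E2 against 1168, 4293 over both against 2517, and 5093 against the antiestrogen arms against 3433. For E2 averaged over the arms the 7 genes called became 14 with the block, 12 with DESeq2 and 2 with limma. Of the pathway lists, the block called 11 signalling genes higher (6 without it) and 14 targets lower (7 without it). Of 165 alternative values of the 8 called member differences, 133 kept the call, 32 lost it and 0 reversed. Of 24 libraries, 23 correlated best with their own replicate number.

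Bcl3 was close to undetected (at most 43 counts in a library) and was left out of the main tests. With 3 libraries against 3 an exact permutation p cannot go below 0.1. That floor does not apply to the edgeR tests, which share an estimate of spread across groups. The median SE of a log2 fold change was 0.212 in SH against NC without E2, so small shifts in noisy members were not detectable.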
